A study of Mus musculus with 2 samples.

Results

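Mybpc1-positive epithelial cells without a skeletal muscle program made up 119 of 1479 eligible thymic epithelial cells, and of 3447 droplet barcodes in all. Mybpc1 encodes a myosin-binding protein of the muscle sarcomere. Members were chosen by measured counts. A cell was a member when it held at least 2 Mybpc1 molecules, at least 3 molecules of Krt5, Krt8, Krt14, Krt18 and Epcam together, and none of the leukocyte gene Ptprc. It also had to hold fewer than 3 molecules of Col6a1 and Col6a2 together and fewer than 3 of the muscle genes Myog, Actc1, Acta1, Ckm, Myl1 and Tnnt3, in a barcode with at least 500 genes and under 15% mitochondrial molecules. The 1360 other eligible cells met every clause except the one on Mybpc1 and served as the comparison. Molecules were counted by unique molecular identifiers (UMIs), and levels are given as CPM, a gene's UMIs scaled to a common total of UMIs.

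The cells came from the thymi of 6-week-old female mice of the strains C57BL/6 (B6), BALB/c and NOD, with 2 mice per strain and no treatment or introduced allele named in the labels. Leukocytes bearing CD45 were depleted, and medullary thymic epithelial cells (mTEC) with low MHC class II and without podoplanin and CD104 on the surface were sorted. Each mouse was tagged with its own hashtag antibody, and all 6 mice were captured in 1 library. NOD mice develop autoimmune diabetes.

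Mimetic cells are mTEC that switch on the programs of peripheral cell types, such as tuft cells, keratinocytes, ciliated cells and muscle cells, under lineage-defining transcription factors. They lie downstream of an immature mTEC that carries Krt5, Krt14 and the chemokine Ccl21a and of a stage marked by the regulator Aire, and they show tissue antigens to developing T cells. Myosin-binding proteins steady the thick filament of striated muscle, and Mybpc1 is the slow skeletal form. Its presence in a thymic epithelial cell therefore raises the question of which other muscle, epithelial and developmental genes accompany it.

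Mybpc1 (ENSMUSG00000020061.18) lies on the minus strand of chromosome 10, at chr10:88518279-88605152 in GENCODE M21 on mm10. The window around its start site (RefSeq, GRCm38.p6, chr10:88605103-88605402, minus strand, 300 bases) is shown because Mybpc1 sets the gate and because E-boxes are bound by muscle-determining factors such as Myog, a gene of the rule. Capitals mark the E-box letters CAGCTG, which read the same on both strands.
Mybpc1: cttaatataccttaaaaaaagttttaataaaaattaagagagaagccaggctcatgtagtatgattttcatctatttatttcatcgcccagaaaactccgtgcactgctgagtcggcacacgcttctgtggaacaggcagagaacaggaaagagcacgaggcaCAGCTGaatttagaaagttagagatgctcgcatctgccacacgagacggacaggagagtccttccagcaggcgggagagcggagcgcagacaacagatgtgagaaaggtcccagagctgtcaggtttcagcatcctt
The letters start 87 bases before the start site. They occurred in 16.3% of all 32851 such mouse windows, and in 1 of the 10 named genes of higher expression that had a window, so they only describe this window.

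The values that chose the cells are given as a description. Members held between 2 and 44 Mybpc1 UMIs with a median of 6, and 17 of them held exactly 2. Just outside the bound, 40 eligible cells held 1. The epithelial sum ran from 3 to 807 UMIs with a median of 126, with 5 members at 3 to 5 UMIs and 1 otherwise fitting barcode under 3. Among the genes of that sum, Krt14 was found in 94.1% of members and 38.2% of other eligible cells, and Krt5 in 84.9% and 38.6%. Krt8 was found in 94.1% and 88.7%, Krt18 in 93.3% and 91.5%, and Epcam in 92.4% and 94.6%. Pooled levels of Krt8, Krt18 and Epcam were lower in members, at 1217, 931 and 871 CPM against 1825, 1665 and 1132. Of the members, 97 held none of the 6 muscle genes and 22 held 1 or 2, while 6 barcodes with Mybpc1 fell just outside with 3. Actc1 was at 0 in all members, and Tnnt3 was found in 1 of them. Myog, a muscle-determining factor, was found in 13 members (10.9%) and reached 38 UMIs in 1, and Myl1 was found in 8 and reached 24, so that the label holds for the program and not for every muscle transcript.

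Members were deeply sequenced. Their median was 29492 UMIs and 6182 genes per cell, against 14775 UMIs and 4362 genes in the other eligible cells. A mouse could be assigned to 87 members, and 32 stayed without one, 12 for fewer than 100 hashtag UMIs and 20 because no hashtag reached 80%. That is 26.9% of members against 17.4% of other eligible cells, and 37.2% against 23.3% among cells above 20000 UMIs. The part of doublets in this difference was not tested. Cells without a mouse entered the descriptions of all members and no comparison between mice or strains.

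Mybpc1-positive cells took a larger share of the epithelial cells in BALB/c and NOD than in B6. In the B6 mice they were 3 of 177 eligible cells (1.69%, exact Clopper-Pearson 95% interval 0.351 to 4.87) and 3 of 176 (1.70%, 0.353 to 4.90). In the BALB/c mice they were 24 of 307 (7.82%, 5.07 to 11.4) and 43 of 434 (9.91%, 7.26 to 13.1). In the NOD mice they were 7 of 64 (10.9%, 4.51 to 21.2) and 7 of 53 (13.2%, 5.48 to 25.3). Every BALB/c and NOD mouse lay above both B6 mice, and every NOD mouse above both BALB/c mice. The intervals cover counting error only.

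In edgeR's quasi-likelihood test on the number of cells with at least 2 UMIs of each gene, run over all 14164 genes found in enough cells, the share was higher in BALB/c than in B6 by 2.37 on the log2 scale (SE 0.50, adjusted p = 7.95e-05). This direction was called for 5.80% of all genes tested. NOD exceeded B6 by 2.77 (SE 0.67, adjusted p = 0.00106), where 12% of genes were called in that direction. NOD and BALB/c differed by 0.41 (SE 0.45, adjusted p = 0.62), where 7.84% of genes were called upward. In the same fit, Ccl21a (1.83), Krt14 (1.69) and Krt5 (1.34) were also called higher in BALB/c than in B6. Aire (0.46) and Nkx6-2 (0.25) were not. NOD was called higher than B6 for Ccl21a (1.59), Krt14 (2.08), Krt5 (1.56) and Aire (2.36), but not for Nkx6-2 (0.59). A larger share than in B6 was thus not particular to Mybpc1. An exact permutation over the 6 mice gave p = 0.0667 for the strains, two-sided, the smallest that its 90 arrangements can give, and 2 mice against 2 cannot go below 0.333. Higher Mybpc1 in BALB/c had been seen in these same cells before the gate was drawn, so the share is not independent evidence of that direction.

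Depth moved with strain. The median eligible cell held 14794 and 14284 UMIs for the B6 mice, 13711 and 14347 for BALB/c, and 16159 and 22258 for NOD. With every cell thinned to 5000 UMIs and 1 remaining Mybpc1 UMI as the bound, the B6 mice had shares of 1.90% and 3.23%, the BALB/c mice of 7.42% and 10.2%, and the NOD mice of 6.38% and 8.70%. The groups of B6 and the other strains still did not overlap. BALB/c remained above B6 (log2 1.79, edgeR adjusted p = 0.00692), and the NOD difference was no longer called (1.53, adjusted p = 0.323).

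**Figure D1:**
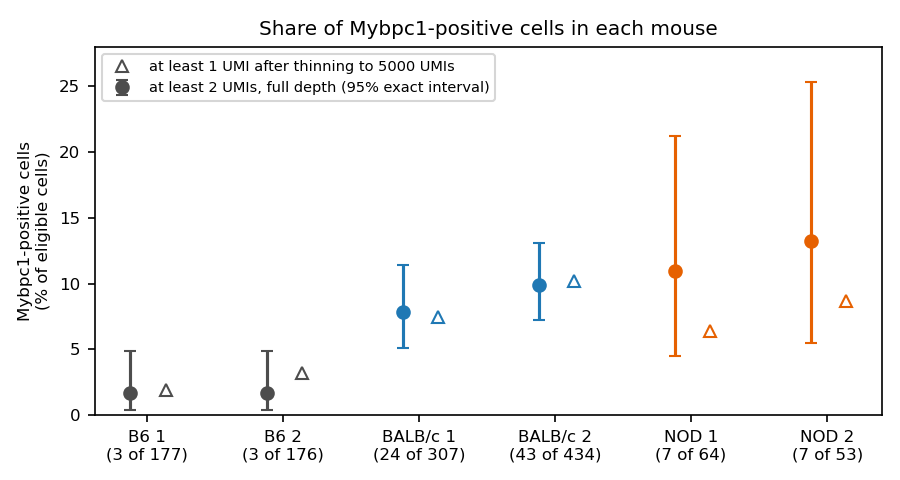
Share of eligible cells that were Mybpc1-positive in each mouse. Filled circles give the share with at least 2 Mybpc1 UMIs at full depth with its exact 95% interval, and open triangles the share with at least 1 UMI after thinning to 5000 UMIs. The B6 mice lie at 1.69% and 1.70%, and the other 4 mice between 7.82% and 13.2%.

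Mybpc1 was found in 2 of 162 barcodes of a leukocyte gate that did not use the gene (1.23%). These barcodes were shallower than the members, with a median of 6264 UMIs.

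For genes outside the rule, counts were summed over the members and over the other eligible cells of each mouse and compared within mice. The gate was drawn on Mybpc1 after a cell cluster led by that gene had been seen in these data. The p-values below therefore say how steadily a gene goes with the gate over 6 mice, and are no independent evidence. Of 10186 genes tested, 1188 were higher in members (11.7%) and 1765 lower (17.3%), by edgeR's quasi-likelihood test with Benjamini-Hochberg adjustment. Without the second BALB/c mouse, which held 43 of the 87 assigned members, the numbers were 598 and 1056. With cells thinned to 5000 UMIs they were 397 and 571. Leaving out cells with Mki67 or Top2a left 726 (7.9% of those tested) and 1332 (14.5%), from the 3 mice that kept 3 or more members. Member sums were 99051 and 45330 UMIs in the B6 mice, so that 1 UMI there equals 10.1 and 22.1 CPM. In the other mice they were 173512 to 1117983 UMIs. Counts of list genes below are to be read beside the 11.7% higher and 17.3% lower over all genes.

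Nkx6-2 (chr7:139579376-139582797), a homeobox factor of neural tube and glial development, showed the largest upward difference under the naming rule. Its levels were 131 and 552 CPM in members of the B6 mice, 134 and 79.6 in BALB/c, with 190 and 62.0 in NOD. Other eligible cells held 17.2, 21.9, 22, 11.0, 18.3 and 6.15 CPM. The lowest member sum was above the highest comparison sum, and the difference was 3.27 (SE 0.25, edgeR adjusted p = 9.3e-09). Nkx6-2 was seen in a minority of members, 49 of 119 (41.2%), and in 1 assigned member of each B6 mouse. At 5000 UMIs it was found in 20.3% of members and 5.98% of other cells. It was also found in 23.7% of 527 eligible cells that held at least 5 UMIs of the tuft genes Trpm5, Gnat3 and Avil together and fewer than 2 of Mybpc1, so it is not a label of the Mybpc1 cells alone.

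Other regulators from the list of epithelial lineage factors divided the members from the rest. Of 21 tested factors outside the rule, 3 rose and 11 fell, with a median log2 difference of -1.16 beside -0.07 over all genes tested. Among those that rose were Trp63, the basal epithelial factor (0.82, SE 0.27, edgeR adjusted p = 0.028), and Foxn1, the thymic epithelial factor (1.5, SE 0.25, adjusted p = 0.00014). Trp63 was lower in members in the second NOD mouse, at 65.0 against 123 CPM. The factors that fell included Klf4, Klf5, Grhl1, Grhl3, Ovol1 and Elf3, which drive differentiation in surface epithelia, Pou2f3 of tuft cells and Foxj1 of ciliated cells. Elf3 was at 22.1 to 73.8 CPM in members and 138 to 317 in other cells, a difference of -2.26 (SE 0.27, edgeR adjusted p = 3e-06).

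Mmp9, a gelatinase that cuts matrix collagen, was at 10.1 to 132 CPM in members (median of 6 mice 77.7) and 1.33 to 17.7 in other cells (median 9.92). Il1r2, the decoy receptor for interleukin 1, was at 22.1 to 340 CPM and 6.96 to 49.1. Hhip, which binds and holds back hedgehog ligands, was at 40.4 to 243 CPM and 8.69 to 46.1. These ranges overlapped between mice, and each gene was higher in members in all 6 of them. The differences were 2.81 (SE 0.30, edgeR adjusted p = 8.7e-07) for Mmp9, 2.72 (SE 0.26, adjusted p = 1.5e-07) for Il1r2 and 2.37 (SE 0.28, adjusted p = 4.7e-06) for Hhip.

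The cadherins Cdhr1 and Cdh22, the growth factor Wnt10b, the lectin Lgals1, the lysophosphatidic acid receptor Lpar1, the B-cell coactivator Pou2af1, the B-cell surface protein Cd72 and the neural protein Brinp2 rose by 2.28 (Cd72) to 2.68 (Cdhr1). The replication helicase Mcm5 rose by 2.54 and the actin-binding Tagln of smooth muscle by 2.33. Cdhr1 was found in 73.6% of members and 13.1% of other cells at full depth, and in 38.0% and 6.72% after thinning. The B6 members gave the lowest of these levels for several genes. Mmp9, Tagln and Cd72 were each at 10.1 CPM in the first B6 mouse, which is 1 UMI.

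**Figure D2:**
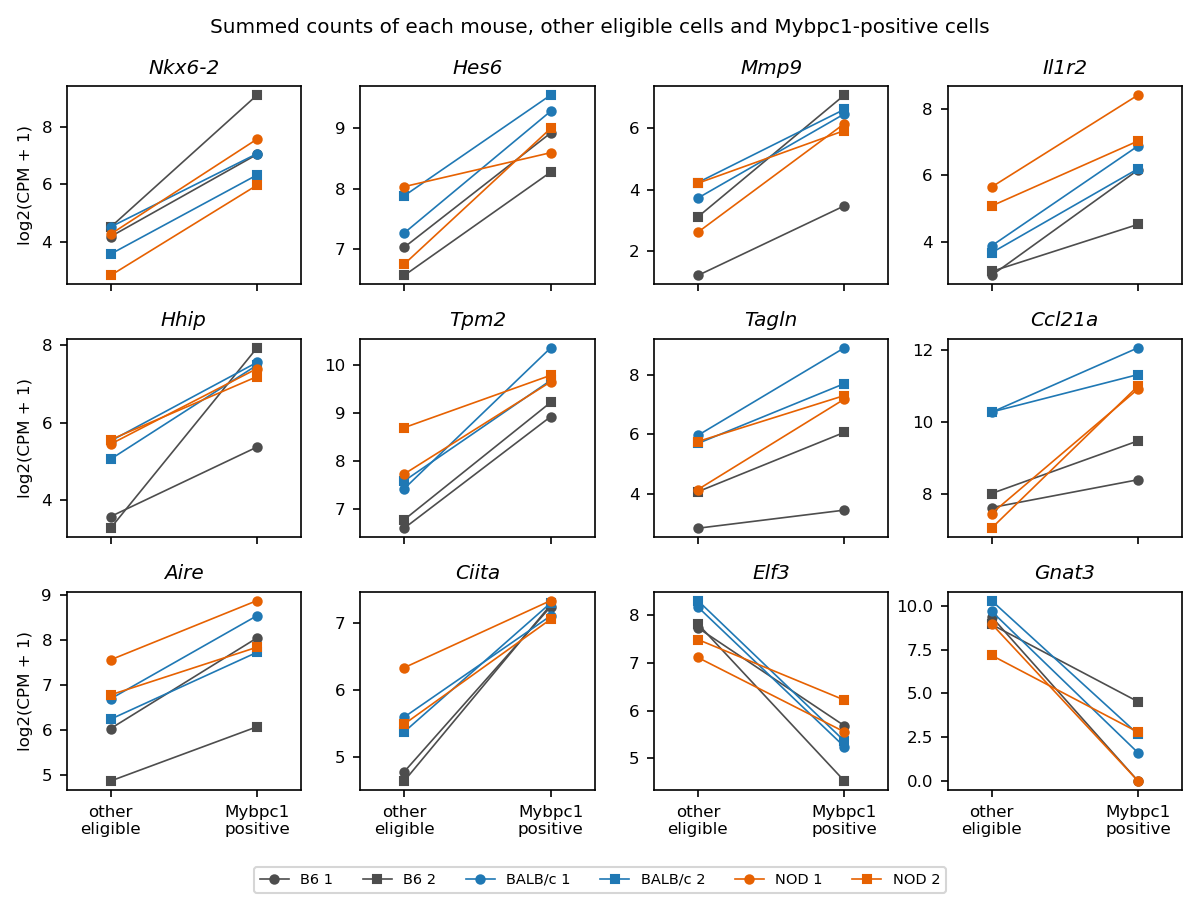
Level of 12 genes in the summed counts of each mouse, as log2(CPM + 1), in other eligible cells (left) and Mybpc1-positive cells (right). Each line joins the 2 sums of 1 mouse. All lines rise for 10 genes and fall for Elf3 and Gnat3, and Ccl21a starts far higher in the BALB/c mice.

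Tpm2, the tropomyosin of slow and smooth muscle, was at 485 and 596 CPM in members of the B6 mice, 1309 and 818 in BALB/c, with 801 and 880 in NOD. Other cells held 96.1, 109, 171, 191, 211 and 413 CPM, below every member sum, and the difference was 2.16 (SE 0.23, edgeR adjusted p = 6.4e-07). Myh11, the smooth muscle myosin heavy chain, rose by 2.07 (SE 0.27, adjusted p = 1.2e-05). Acta2, the smooth muscle actin, rose by 1.45 (SE 0.44, adjusted p = 0.032), but in the first B6 mouse it was at 10.1 against 12.3 CPM. Of 5 tested smooth muscle or pericyte markers, 3 rose and none fell, and Cnn1 was at 0 in assigned members. Their summed level was 151 to 2207 CPM in members and 240 to 379 in other cells.

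Of 12 skeletal muscle markers, 6 were in the rule and only 2 others had enough counts to test. Ttn, the giant sarcomere spring, rose by 1.35 (SE 0.36, edgeR adjusted p = 0.011) and was lower in members in the first B6 mouse. Myod1 and Myh3 were at 0 in assigned members. The summed skeletal level was 20.2 to 253 CPM in members and 21.2 to 256 in other cells, ranges that overlap. Cells with 3 or more of 6 such genes had been removed by the rule, which limits the skeletal content of members and of other cells alike, so these levels say nothing of skeletal muscle genes in Mybpc1 cells at large. In the wider list of sarcomere and contractile genes, 4 of 8 tested rose (Ttn, Tpm2, Actn3 and Synpo2) and 2 fell (Tnnt2 and Myl4), with a median of 0.61. Actn3, the alpha-actinin of fast muscle, was at 60.6 to 242 CPM in members and 13.6 to 93.9 in other cells (1.79, SE 0.22, adjusted p = 4.4e-06). Tnnt2, the cardiac troponin T, was at 0 in the members of 4 mice and at 16.9 to 29.5 CPM in other cells.

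Markers of the immature mTEC and of the Aire stage were both higher in members. Of 5 tested immature markers outside the rule, 4 rose and 1 fell, with a median of 0.82. Ccl21a was at 333 and 706 CPM in members of the B6 mice, 4249 and 2536 in BALB/c, with 1919 and 2035 in NOD, against 194, 255, 1225, 1231, 173 and 130 CPM in other cells. Members were higher in 6 of 6 mice (2.10, SE 0.52, edgeR adjusted p = 0.024), and the ranges overlapped because other cells of BALB/c exceeded B6 members. The matrix lists near-identical Ccl21 copies separately, so that the split of these counts between copies is uncertain. Ly6a, a surface protein of progenitors and interferon-exposed cells, fell by 1.82 on the log2 scale (SE 0.23, adjusted p = 7.3e-06).

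Pdpn and Itgb4, whose proteins were sorted against, were among the 4 immature markers that rose. Itgb4 was found in 81 of 119 members (68.1%) and 37.0% of other eligible cells, and rose by 0.67 (SE 0.24, edgeR adjusted p = 0.043), although it was lower in members of the first B6 mouse. Pdpn was found in 30 members (25.2%) and 6.6% of other cells, with 0 UMIs in the members of the first B6 and the first NOD mouse. Ptprc was at 0 by the rule. The sort was on protein and these are RNA counts.

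Of 6 tested Aire-stage markers, 5 rose and none fell, with a median of 1.37. Aire was at 262 and 66.2 CPM in members of the B6 mice, 370 and 210 in BALB/c, with 467 and 227 in NOD, against 64.3, 28.2, 102, 74.4, 187 and 109 CPM in other cells. It was higher in 6 of 6 mice (1.57, SE 0.21, edgeR adjusted p = 1e-05), with overlap between mice. Ciita, the class II transactivator, was at 133 to 161 CPM in members and 24.0 to 80 in other cells, without overlap (1.83, SE 0.23, adjusted p = 4.8e-06). Fezf2, which drives tissue antigens beside Aire, and the receptors Cd40 and Tnfrsf11a also rose, by 1.25 to 1.49. Cd80 was at 0.66 (SE 0.26, adjusted p = 0.063).

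Aire and cycling markers were often found in the same members. Among members, 54 of 119 (45.4%) held a UMI of Mki67 or Top2a, and 43 of the 63 with Aire were among them. Without such cells on either side, and with the 3 mice that kept 3 or more members, the Aire difference was -0.21 (edgeR adjusted p = 0.85) and that of Fezf2 0.20 (adjusted p = 0.69). In the same 3 mice with cycling cells kept, they were 1.63 (adjusted p = 4.4e-05) and 1.21 (adjusted p = 0.00085). Without cycling cells, Nkx6-2 (2.48), Tpm2 (3.0) and Ccl21a (2.75) were still higher in members, each with an adjusted p of at most 1.7e-05. Of 6 proliferation markers, Stmn1 rose (1.81, SE 0.26, adjusted p = 4.4e-05), and Mki67 was at 1.72 (SE 0.58, adjusted p = 0.06), where 11.7% of all genes tested rose. Their summed level was 425 to 2088 CPM in members and 251 to 1202 in other cells, and members were lower in the first BALB/c mouse, at 425 against 472, and in the first NOD mouse, at 882 against 1202. Both fits were added after the data were seen.

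Antigen presentation genes rose as a group although the cells were sorted for low class II protein. Of 12 MHC class II genes tested, 10 rose and none fell, with a median of 1.10. H2-Aa was at 2250 to 3763 CPM in members and 899 to 1857 in other cells, without overlap (1.33, SE 0.16, edgeR adjusted p = 3.2e-06). Of 12 genes of the NF-kB and RANK pathway, which drives mTEC maturation, 5 rose (Tnfrsf11a, Cd40, Relb, Nfkb2 and Birc3) and the decoy receptor Tnfrsf11b fell. Of 12 chemokines and cytokines, 6 rose (Ccl19, Ccl21a, Cxcl10, Cxcl11, Il7 and Il15) and Ccl20 fell. Il7, the growth factor of T-cell precursors, was at 76.8 to 182 CPM in members and 31.5 to 72.3 in other cells, without overlap (1.42, SE 0.22, adjusted p = 4.5e-05).

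Signalling and matrix genes moved in part, where 11.7% of all genes tested rose and 17.3% fell. Medians were 0.51 for the Wnt list, -0.46 for Notch and 0.67 for basement membrane and integrins, beside -0.07 over all genes. Of 12 tested TGF-beta and BMP genes, 1 rose and 1 fell (median -0.03). Of 8 tested FGF and EGF genes, 1 rose and 3 fell (median -0.50). In the Wnt list, 4 of 9 tested genes rose and none fell. They were Wnt10a, Wnt10b, the Wnt antagonist Sfrp1 and the effector Tcf7l2, with 131 to 221 CPM of Sfrp1 in members and 29.2 to 90.2 in other cells. In the Notch list, Notch1 and Hes6 rose and Notch3, Jag1 and Nrarp fell among 8 tested. Hes6, an inhibitor of the Notch target Hes1, was at 309 to 750 CPM in members and 93.5 to 261 in other cells, without overlap (1.73, SE 0.23, edgeR adjusted p = 8.5e-06). Of 11 basement membrane and integrin genes, 6 rose and none fell, led by the collagen IV chains Col4a2 (1.96) and Col4a1 (1.74).

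Tuft, keratinocyte and ciliated markers were low in members. All 7 tested tuft markers and all 7 tested keratinocyte markers fell, as did 5 of 5 tested ciliated markers, with medians of -4.74, -6.40 and -6.79. Other lineages were less uniform, beside 11.7% of all genes tested that rose and 17.3% that fell. Of 6 tested enterocyte-hepatocyte markers 3 fell, of 3 microfold markers 1 (Ccl20) fell, and of 5 neuroendocrine markers Insm1 rose and Chga fell. Of 2 secretory markers Wfdc2 fell, and Cftr, the 1 ionocyte marker tested, fell. In the first B6 mouse, members exceeded other cells in the summed enterocyte-hepatocyte (18031 against 7563 CPM), microfold (8157 against 1965) and neuroendocrine markers (2453 against 1040). The 10 genes named for lower expression were Sh2d7, Adgrg6, Tmem45b, Rgs22, Rgs13, Tspan8, Gnat3, Pik3cg, Slitrk6 and Slit2. Gnat3 encodes the taste G protein of tuft cells and Rgs13 a regulator of such proteins. Sh2d7 and Adgrg6 had no UMI in assigned members and 2432 and 2288 in other cells, which makes them at least 95.4-fold and 89.8-fold lower against a floor of 3 UMIs over all members. Gnat3 was at 0 to 22.1 CPM in members and 144 to 1261 in other cells (-7.41, SE 0.43, edgeR adjusted p = 5.6e-10). Of the other eligible cells, 599 (44.0%) held at least 3 tuft markers, and these folds are relative to such a mixture.

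Barrier genes were low as well. Of 15 tested junction genes, 11 fell and Dsg2 rose, and of 9 tested keratins, 6 fell and Krt7 rose. Cldn4, a tight junction protein, was at 0 to 34.6 CPM in members and 130 to 173 in other cells (-3.14, SE 0.30, edgeR adjusted p = 1.6e-07). Krt17, a basal and stress keratin, was at 1131 CPM in the first B6 mouse and 3664 to 6888 in members of the other 5 mice. Its difference missed the threshold (0.75, SE 0.26, adjusted p = 0.051). Over all genes tested, 11.7% rose and 17.3% fell. Of 17 immediate-early and heat shock genes, 8 fell and Hspa8 rose, and of 32 interferon-stimulated genes, 12 fell and 3 rose. Fos, for example, fell by 1.99 on the log2 scale (SE 0.34, adjusted p = 0.00096).

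Markers of other lineages that a sort could carry along varied between mice in the members. Of 6 fibroblast markers, Col1a1, Col3a1, Pdgfra and Lum were at 0 in assigned members, and the summed level was 0 to 132 CPM against 8.29 to 22.6 in other cells. The highest fibroblast sum was in members of the second B6 mouse. Thymocyte markers summed to 0 to 121 CPM in members, highest in the first B6 mouse, and 7.18 to 11.9 in other cells. Endothelial markers summed to 6.16 to 40.3 CPM in members and 6.60 to 16.8 in other cells. B-cell markers were lower, at 0 to 34.6 CPM in members and 46.7 to 1080 in other cells. Myeloid or dendritic markers summed to 199 to 1535 CPM against 490 to 760, with the highest value in members of the first B6 mouse. At least 3 tuft markers were found in 12 of 119 members and at least 3 keratinocyte markers in 7. The part of doublets or stray RNA in these counts was not tested. The 3 members of the first B6 mouse stood apart. Their summed enterocyte-hepatocyte markers lay far above the 0 to 69.2 CPM in members of the other 5 mice, and their microfold markers above 100.7 to 286.8. Without this mouse 1180 genes were higher and 1754 lower in members.

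**Figure D3:**
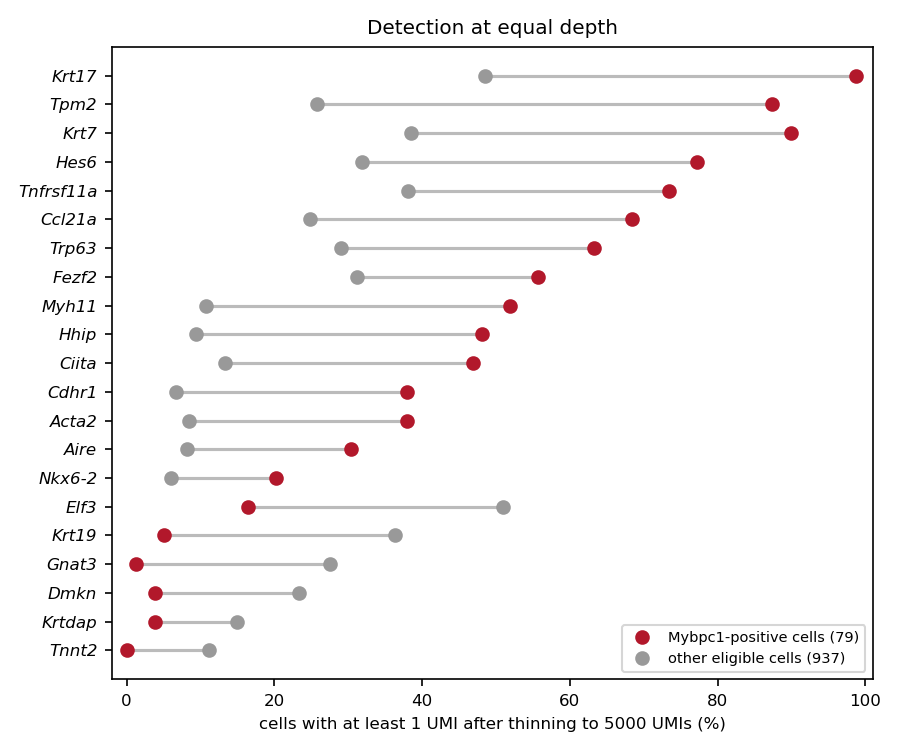
Share of cells with at least 1 UMI of each gene after every cell was thinned to 5000 UMIs, in 79 Mybpc1-positive cells (red) and 937 other eligible cells (grey) with a mouse. Tpm2 lies at 87.3% and 25.7%, and the tuft gene Gnat3 at 1.27% and 27.5%.

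Members varied among themselves. Aire was found in 63 of 119, at least 5 Ccl21a UMIs in 78, and both in 31. Only 7 members held neither Aire, Mki67, Top2a nor 5 Ccl21a UMIs, which is 5.88% of members beside 61.5% of other eligible cells. These shares are at full depth, where members had a median of 29492 UMIs and other cells 14775, and the part of depth was not tested. After thinning to 5000 UMIs, Aire was found in 35.1% of members and 8.69% of other cells, and Ccl21a in 70.3% and 23.4%. Krt5 and Krt14 were found together in 97 members (81.5%) and in 24.6% of other cells. In the second NOD mouse all 7 members held Aire.

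The number of Mybpc1 UMIs in a cell was followed across its bound. Pooled over cells, Tpm2 was at 138 CPM in eligible cells without Mybpc1, 374 with 1 UMI, 542 with 2, 638 with 3 to 5 and 765 with 6 or more. Aire was at 69.8 CPM without Mybpc1 and 221 to 259 in the other 4 bins. Nkx6-2 was at 9.78 CPM with 1 UMI and 139 with 2. Cells just outside the gate were thus between the groups for Tpm2, level with the members for Aire and low for Nkx6-2. Bins pool mice and were not tested.

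**Figure D4:**
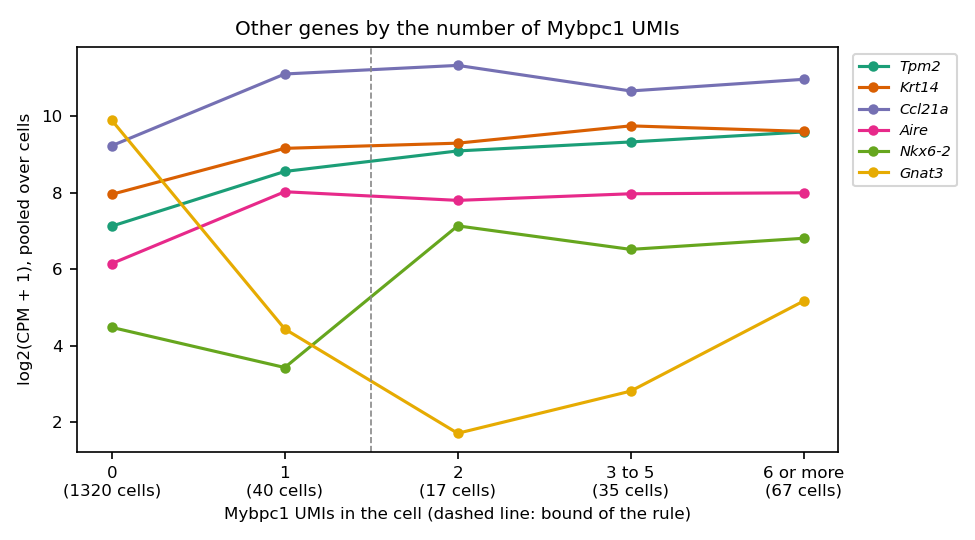
Levels of 6 genes, as log2(CPM + 1) pooled over cells, by the number of Mybpc1 UMIs in the cell, with the bound of the rule as a dashed line. Tpm2 is intermediate at 1 UMI, and the tuft gene Gnat3 falls from 944 CPM in cells without Mybpc1 to 20.7 CPM at 1 UMI.

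Against other eligible cells with at least 2 Aire UMIs (84 with a mouse), a comparison added after these data were seen, members differed in fewer genes. Of 4783 genes tested, 124 were higher (2.59%) and 52 lower (1.09%) by edgeR. Trp63 was at 65.0 to 415 CPM in members and 28.7 to 97.9 in Aire cells (2.14, SE 0.34, adjusted p = 0.0098). Nkx6-2 (2.10, SE 0.24, adjusted p = 0.0016) and Tpm2 (1.17, adjusted p = 0.032) were also higher. Tnfrsf11b was lower (-3.54, SE 0.37, adjusted p = 0.0011). Among genes chosen after their values were seen, Tenm4, Lifr and Gli3 were higher by 2.43 to 3.25, and Sncg, S100g and Cd52 lower, with Cd52 at -3.57. H2-Aa (-0.49, adjusted p = 0.087) and Ciita (-0.07, adjusted p = 0.86) did not pass the threshold.

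Against other eligible cells with at least 5 Ccl21a UMIs (221 with a mouse), also added later, 20 of 3635 genes were higher in members (0.55%) and 19 lower (0.523%), and 769 had an unadjusted p under 0.05. Nkx6-2 was again highest, at 62.0 to 552 CPM in members and 6.41 to 55.4 in Ccl21a cells (3.59, SE 0.30, edgeR adjusted p = 0.00022). Stmn1 was higher too (1.47, SE 0.26, adjusted p = 0.023), and of genes chosen after their values were seen Dut, an enzyme of nucleotide supply, was (1.54, SE 0.26, adjusted p = 0.022). The interferon-stimulated Irf7 (-2.33) and Isg15 (-2.03) and the lymphocyte surface gene Cd52 (-2.74) were lower. Trp63 (-0.17, adjusted p = 0.79) and Tpm2 (0.47, adjusted p = 0.3) were not called. The Ccl21a cells were shallow, with a median of 9695 UMIs, and fewer genes could be tested than in the other comparisons. Of the 15 genes of higher expression that the naming rule took, Nkx6-2 was the only one called against all 3 sets of comparison cells, where Pou2af1, Brinp2 and Cd72 were tested in the first alone and Mcm5 and Cdh22 not against Ccl21a cells.

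**Figure D5:**
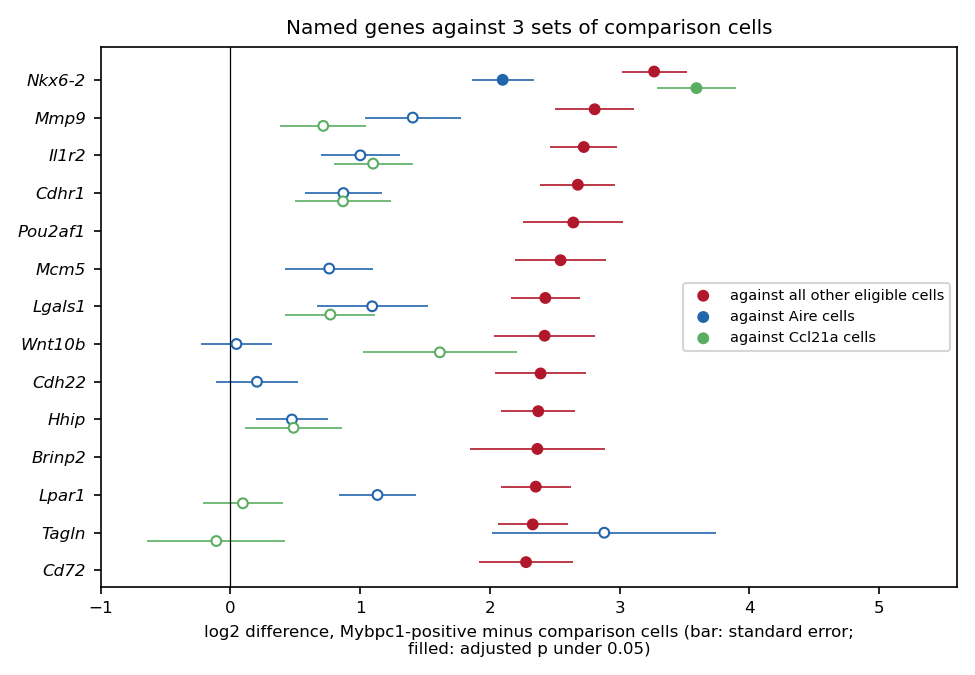
Log2 difference of 14 named genes between Mybpc1-positive cells and 3 sets of comparison cells from the same mice, with standard errors. Filled symbols passed an adjusted p of 0.05. Nkx6-2 is filled in all 3 sets, at 3.27, 2.10 and 3.59.

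Few genes were called between members of the strains. In simulated data, 2 of 99 genes changed by 1 log2 unit were called between BALB/c and B6 members. The small numbers of calls therefore do not show that members of the strains were alike. H2-Ea, a class II alpha chain that B6 and NOD mice do not make and BALB/c mice do, was at 10.1 and 22.1 CPM in B6 members, 1899 and 2115 in BALB/c, with 17.3 and 8.86 in NOD. Among members, only those of BALB/c held H2-Ea at a high level. Other BALB/c cells held it as well, at 1012 and 635 CPM, against 8.07 to 43.4 in other cells of B6 and NOD. The difference between the BALB/c minus B6 contrasts of members and other cells was not called (2.71, SE 0.87, edgeR adjusted p = 0.44). Of 5491 genes tested, 10 were higher and 3 lower in BALB/c than in B6 (0.182% and 0.0546%), 7 higher and 4 lower in NOD than in B6 (0.127% and 0.0728%), and 16 higher and 10 lower in NOD than in BALB/c (0.291% and 0.182%), by edgeR. In all, 36 genes were called in at least 1 contrast. Without the first B6 mouse the number was 160 and without the second 301. B6 rested on 3 members per mouse.

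Apart from H2-Ea, the genes named as higher in BALB/c than in B6 members were Fxyd2, Robo2, Cxcl11, Cd81 and Hebp1, and those named as lower were Cst6, Fcgbp and Rpl26. Cxcl11, an interferon-induced chemokine, was at 30.3 and 22.1 CPM in B6 members, 479 and 843 in BALB/c, with 110 and 136 in NOD, the strains lying apart (4.55 for BALB/c minus B6, SE 0.61, edgeR adjusted p = 0.013). In other cells it was at 18.6, 66.4, 359, 294, 54.3 and 31.8 CPM in the same order of mice, where the contrast was not called (2.92, adjusted p = 0.064). The difference between these contrasts was 1.55 (SE 0.81, adjusted p = 0.87). Hebp1, a heme-binding protein, was at 50.5 and 22.1 CPM in B6 members and 325 and 477 in BALB/c (3.27, SE 0.56, adjusted p = 0.049), and this call was lost in 7 of 19 alternatives. Cst6, a protease inhibitor, was at 444 and 44.1 CPM in B6 members and 10.3 and 10.7 in BALB/c (-4.73, SE 0.79, adjusted p = 0.047). Its call was lost in 10 of 16 alternatives, and without the first B6 mouse the value was -1.81 (adjusted p = 0.59). Fcgbp, a mucus protein, was at 1080 and 949 CPM in B6 members and 61.6 and 34.9 in BALB/c (-4.43, SE 0.48, adjusted p = 0.0022), and at -4.07 in other cells. Rpl26 was likewise low in BALB/c in both kinds of cells (-3.93 and -3.16). Ccl21a was higher in BALB/c than in B6 members by 2.80 (SE 0.41, adjusted p = 0.024). It was also higher in other BALB/c cells, by 2.43 (SE 0.21, edgeR adjusted p = 0.0034). The difference between these 2 contrasts was 0.60 (SE 0.44, adjusted p = 0.93).

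In NOD members, Cnmd, a cartilage growth inhibitor also called chondromodulin, was at 490 and 331 CPM, while it had no UMI in B6 members and 4.11 and 0 CPM in BALB/c. It was at least 18.5-fold higher in NOD than in B6 against a floor of 3 UMIs over the B6 members. Other NOD cells held 77.0 and 9.23 CPM. The difference between the contrasts of members and of other cells was not called. It was 9.28 against B6 (SE 4.46, edgeR adjusted p = 0.77) and 3.05 against BALB/c (SE 1.60). The class I gene H2-T22 and the epidermal Skint1 were lower in NOD than in B6 (-4.26 and -4.20, edgeR adjusted p = 0.041 and 0.03). Both were lower in other NOD cells too (-3.82 and -1.12). The difference between the contrasts was not called for Skint1 (-2.95, SE 0.72, edgeR adjusted p = 0.065). Skint1 was at 262 and 287 CPM in B6 members, 55.5 and 34.0 in BALB/c, with 23.1 and 8.86 in NOD. The remaining genes named against B6 were Rps24-ps3, Fxyd2 and Hebp1 upward and S100a3 downward. Against BALB/c they were Rps24-ps3, Zfp979, Cnmd, Hmgb1-ps7, Camk2b and Gda upward and H2-Ea, Tmem181c-ps, Krt15, Cdkn1c, H2-T22 and Cxcl11 downward. Cdkn1c, a cell cycle inhibitor, was at 144 and 371 CPM in BALB/c members and 5.76 and 14.8 in NOD (-4.41, SE 0.71, adjusted p = 0.02), and at 369, 663, 629 and 247 CPM in other cells of these mice. Every named contrast between strains of members lost its call in at least 1 alternative, except Cnmd and Rps24-ps3 between NOD and BALB/c, and Krt15 lost it in 11 of 17. Ccl19, a lymphoid chemokine, was at 34.9 and 68.9 CPM in BALB/c members and 294 and 236 in NOD (2.34, SE 0.41, adjusted p = 0.032).

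The level of Mybpc1 itself, which chose the members, is a description. It was at 90.9 and 816 CPM in B6 members, 532 and 294 in BALB/c, with 277 and 284 in NOD. The B6 mice spanned the values of the other strains.

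Whether a strain contrast differed between members and other eligible cells was tested as a difference of contrasts with a term for mouse. The make-up of the other eligible cells itself differed by strain. Cells with at least 5 UMIs of Trpm5, Gnat3 and Avil together were 152 of 347 in B6, 246 of 674 in BALB/c and 15 of 103 in NOD. Those with at least 5 Ccl21a UMIs were 20, 183 and 18. The part of this make-up in the differences of contrasts was not tested. Of 12838 genes, 6 had a larger and 3 a smaller value in members for BALB/c minus B6 (0.0467% and 0.0234%), 15 and 8 for NOD minus B6 (0.117% and 0.0623%), and 17 and 11 for NOD minus BALB/c (0.132% and 0.0857%). In all 46 genes were called. Without the second B6 mouse the number was 132, without the second BALB/c mouse 80, and without the first and the second NOD mouse 128 and 150. Without the mouse term 1 gene was called.

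Fabp5, a fatty acid carrier of keratinocytes, was at 606 and 1213 CPM in B6 members and 3121 and 3489 in BALB/c, but at 3157 and 3067 in other B6 cells and 1682 and 1488 in other BALB/c cells. Its contrast differed by 3.23 (SE 0.42, edgeR adjusted p = 5.53e-06), with opposite order in members and other cells. Within members the contrast was not called (1.93, adjusted p = 0.11), and in other cells it was (-0.99, adjusted p = 0.016). The B6 members held 115 Fabp5 UMIs. The NOD minus B6 contrast of Ccl21a was 2.07 in members (adjusted p = 0.084) and -0.45 in other cells (adjusted p = 0.19), neither called, and the difference between them was 2.75 (SE 0.45, edgeR adjusted p = 0.00061). Ccnd2, a cyclin of the early cell cycle, was at 787 and 1412 CPM in B6 members and 663 and 951 in NOD, beside 103 and 126 against 412 and 536 in other cells (-2.30, SE 0.46, adjusted p = 0.00974).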

How the data were processed

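The deposited matrix holds unnormalized UMI counts of genes and hashtags for every barcode. Cell Ranger 7.0.0 and mm10 are named in the submitters' processing notes and the file header. The annotation release is not given in the sources used here. Reads of all strains were thus counted against 1 reference. Coordinates were matched by identifier, version aside, to GENCODE M21 (55141 of 55487).

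Of 3447 barcodes, 2527 passed the gene and mitochondrial filters and 1705 of these had a mouse, by a hashtag with at least 80% of at least 100 hashtag UMIs. Counts of the 9 hashtag features of no mouse were not used. The hashtag title writes the same number for both NOD mice, which were kept apart because the design gives 2 per strain. Barcodes with split hashtags left the comparisons as possible doublets, no doublet caller was run, and doublets within a mouse remained.

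Counts were summed per mouse and cell set and tested with edgeR 4.0.16 (filterByExpr, TMM, quasi-likelihood, threshold 0.05, R 4.3.3). Members against others carried a term for mouse, and rule and mitochondrial genes were left untested. Strain contrasts used mice with at least 3 members. Shares used the number of cells with at least 2 UMIs per gene, in at least 10 cells, with eligible cells as offset. Named genes were the 15 largest upward and 10 downward differences with the same sign in every mouse and a UMI in 25% of members (upward) or others (downward), and the 6 largest each way among called strain genes, without Gm and Rik names. Of these, 1 gene that the rule took is not reported here. List genes, rule genes and sort genes were named beside them. The fits were tested on simulated data: 51 of 100 genes changed by 1 log2 unit and 100 of 100 changed by 3 were called in members against others, and 2 of 99 and 83 of 97 between BALB/c and B6 members. The members, lists and tests were chosen with earlier results of these data known. Alternatives were HTODemux (Seurat 5.3.0), DESeq2 1.42.0, other bounds, thinning, left-out mice and other comparison cells. Nothing in the labels says more of the mice than strain, sex and age, so p-values measure the spread between these 6.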

Additional observations from a re-analysis of the deposited data

Results flagged for a closer look

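The genes below were singled out because their strain contrast differed between Mybpc1-positive and other eligible cells, by edgeR's quasi-likelihood test of that difference. The number after each name is the adjusted p. For BALB/c minus B6 they were Fabp5 (5.53e-06), Tspan1 (0.00581), Serpinb6a (0.00701), Wfdc17 (0.013), C3 (0.013), Mctp1 (0.0146), Ppargc1a (0.0146) and Krt15 (0.0403). Serpinb6a was at 202 and 110 CPM in B6 members and 164 and 170 in BALB/c, against 1253 and 1533 and 171 and 267 in other cells. C3 was at 151 and 221 CPM in B6 members and 49.3 and 32.2 in BALB/c.

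For NOD minus B6 they were Fxyd2 (3.09e-05), Matn1 (0.000443), Dpp6 (0.000747), Tff3 (0.000779), Peg3 (0.00545), Ntm (0.00874), Ccnd2 (0.00974), Tspan1 (0.0298), Fcer2a (0.0313), Cdh8 (0.0335) and Cryaa (0.0335). Fxyd2 had 1 UMI in B6 members and 194 in NOD, a ratio of 54.7 with a counting interval of 9.70 to 2171. Cdh8 rested on 5 UMIs in NOD members. Tff3 had 11 UMIs in NOD members, all in the first mouse, and 3 in B6 members, a ratio of 1.03 with a counting interval of 0.273 to 5.77. In other cells Tff3 was at 222 and 220 CPM in B6 and 4.40 and 1.03 in NOD.

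For NOD minus BALB/c they were Cryaa (3.0e-05), Lgals7 (0.000126), Camk2b (0.000492), Cdkn1c (0.00161), Calml3 (0.00317), Prg3 (0.00401), Krt15 (0.00401), Fabp1 (0.00482), Sprr2a3 (0.0102), Tff3 (0.0103), Wfdc21 (0.0406) and Nppc (0.0499). Cryaa had 85 UMIs in NOD members and none in BALB/c. It was at 17.3 CPM in members of the first NOD mouse and 242 in the second. Its call against BALB/c was lost in 8 of 18 alternatives. Prg3 had 17 UMIs in members of 1 NOD mouse. Fabp1 had 6 UMIs in NOD members, all in the second mouse, and Tff3 had 11, all in the first. Sprr2a3 had 12 UMIs in BALB/c members, all in the second mouse. Every difference of contrasts listed in this section lost its call in at least 1 alternative.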

How the results depend on the processing

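The BALB/c minus B6 share kept its direction and call in all 19 alternatives (log2 1.52 to 2.71), and with 1 mouse left out it was 2.15 to 2.5. NOD minus B6 was 2.65 to 2.92 with 1 mouse left out and lost its call at 5000 UMIs (1.53). NOD minus BALB/c, not called, was 0.27 to 0.61 with 1 mouse left out, -0.26 at 5000 UMIs and -0.19 per passing barcode. Replicate numbers did not pair the mice: deviations of number 1 correlated at 0.0419, 0.125 and 0.0928 between strains over 12882 genes. With the replicate block the shares were 2.34, 2.79 and 0.44, and 24 genes were called between strains of members.

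Genes higher in members numbered 676 at a 95% hashtag bound, 397 at 5000 UMIs, 124 against Aire cells, 20 against Ccl21a cells, 726 without cycling cells and 598 to 1239 with 1 mouse left out. Genes lower numbered 571, 52 and 19 under thinning, Aire and Ccl21a cells, 3541 without a count filter and 1056 to 1821 with 1 mouse left out. Strain genes of members numbered 13 with HTODemux, 58 at 60%, 236 at 4 Mybpc1 UMIs, 118 without the deepest 5% of barcodes, 16 thinned, 88 with DESeq2, 376 without filter and 26 to 301 with 1 mouse left out. In other eligible cells 1785 strain genes became 1024 without the deepest barcodes, 4838 without filter and 169 to 3141 with 1 mouse left out. Differences of contrasts numbered 9 with HTODemux, 16 at 60%, 139 at 95%, 18 at 1 and 189 at 4 Mybpc1 UMIs, 26 thinned, 1 with no replicate block, 19 with DESeq2, 115 without filter and 52 to 150 with 1 mouse left out. The cause was not tested. With a lone mouse in a strain, its spread is assumed to be that of the others.

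Reversed values were Tagln against Ccl21a cells (-0.11), Hebp1 with HTODemux (-0.021), and, for differences of contrasts, Mctp1 at 60% (-1.13), Ppargc1a at 4 Mybpc1 UMIs (4.72), without the deepest barcodes (4.40) and with 1 mouse left out (-5.82 to 4.68), Tff3 against B6 with HTODemux (-0.82), at 60% (-0.44) and with 1 mouse left out (-0.63 to 15.01), Fabp1 with HTODemux (-0.69) and Wfdc21 at 1 Mybpc1 UMI (1.26). Strain fits over mice with at least 8 members could not be run, since only BALB/c mice have them. The 6 B6 members limit both contrasts with B6.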
